A study of Mus musculus with 6 samples.

Results

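Glutamate is the main excitatory transmitter of the central nervous system. Ionotropic receptors of the AMPA, kainate and NMDA classes are assemblies of 4 subunits around a cation channel that glutamate opens, metabotropic receptors signal through G proteins, vesicular transporters load glutamate into synaptic vesicles, and plasma membrane transporters clear it from outside the cell, in the developing nervous system largely into radial glia and astrocytes. The genes described here are 32 glutamate receptor and transporter genes, taken by symbol from a list and all found among the 24002 genes of the expression table. They comprise 17 ionotropic receptor genes, 7 metabotropic receptor genes, 3 vesicular and 5 plasma membrane transporter genes.

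The cells were of R1, a mouse embryonic stem cell line kept with 15% serum replacement and 1000 U/ml of the self-renewal cytokine LIF. They were aggregated into embryoid bodies in hanging drops for 48 h and then kept with retinoic acid to day 6, at a dose the labels give as 0.5 mM; micromolar doses are common in such protocols, so that unit is doubtful. RNA-seq of polyadenylated RNA was done on 3 samples (replicates 1, 2 and 3) of this condition, and 3 ATAC-seq samples of the same condition were not analysed here. No other condition, genotype or earlier time was compared, so the values are levels at day 6 and not responses to retinoic acid. An embryoid body mixes cell types, and more cells of a type and more RNA per cell cannot be told apart in such bulk RNA. The labels do not say that the replicates came from separate cultures, so their spread may be technical.

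Levels are in FPKM, fragments scaled by transcript length and by the number of mapped fragments, which can be compared between genes. Absolute read numbers are unknown. Judged from the steps between the lowest values, replicate 1 appeared to be sequenced 1.56 times as deeply as replicate 2 and 1.17 times as deeply as replicate 3, so low values are probably least certain in replicate 2. All 10 pan-neuronal markers examined and all 8 markers of neural progenitors and radial glia had at least 1 FPKM in every replicate, led by Tubb3 (645 ± 8.48 FPKM; SD, n = 3) and Stmn2 (420 ± 15.8) for neurons, and by Fabp7 (910 ± 8.47) and Vim (262 ± 4.85) for progenitors. The labels name the cell type as embryonic stem cell, the starting cell. Of 5 pluripotency markers 3 were expressed, led by Dppa5a (15.6 ± 2.48 FPKM) and Esrrb (6.17 ± 0.222), while the defining markers Pou5f1 (0.815 ± 0.0792) and Nanog (0.0879 ± 0.0318) were below 1 FPKM. The extraembryonic endoderm markers, led by Sparc and Col4a1, were also all at 1 FPKM or more and differed between replicates, with a summed level of 399.7, 538 and 547 FPKM in replicates 1, 2 and 3.

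Of the 32 glutamate genes, 21 (65.6%) reached 1 FPKM in all 3 replicates, the condition for calling a gene expressed here, and 50.7% of all 24002 genes did. At 10 FPKM or more in every replicate stood 5 of them (15.6%), against 24.5% of all genes. The median over the expressed members was 3.97 FPKM, against 10.01 FPKM over all expressed genes. These shares describe the libraries and were not tested. By class, all 4 AMPA, all 5 kainate and all 5 plasma membrane transporter genes were expressed, as was the delta receptor gene, with 3 of 7 NMDA, 2 of 7 metabotropic and 1 of 3 vesicular transporter genes.

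**Figure D1:**
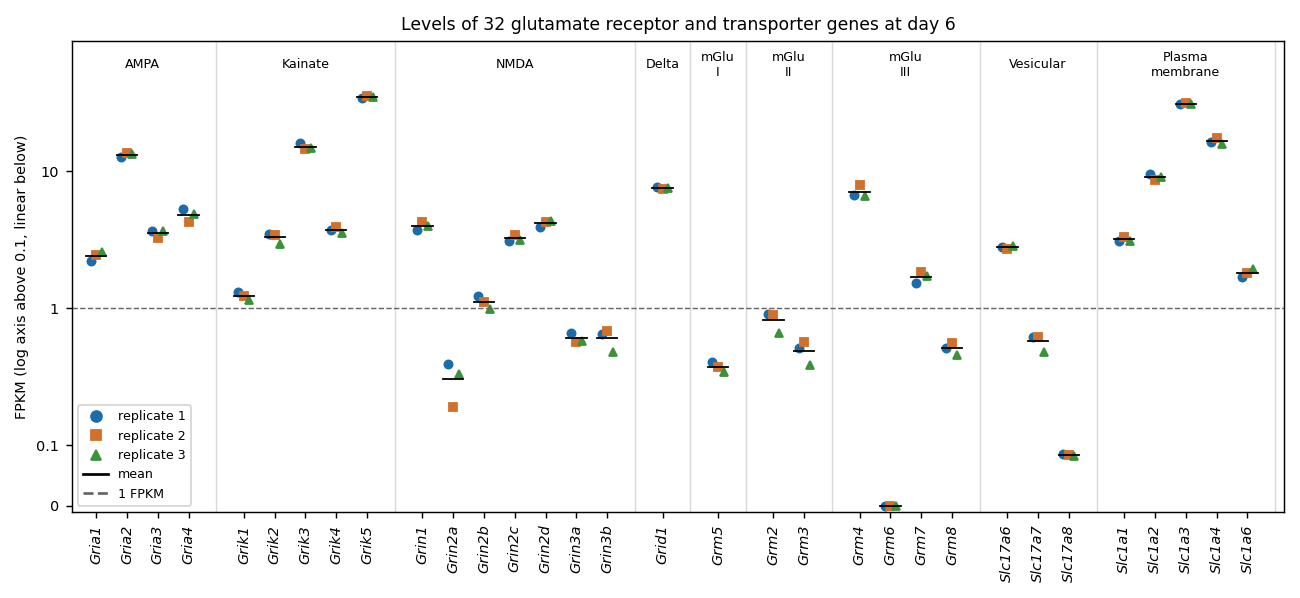
FPKM (vertical axis, logarithmic above 0.1 and linear below) of the 32 genes in each of the 3 replicates (points), grouped by class, with the mean of the replicates (black line) and the threshold of 1 FPKM (dashed). Grik5, Slc1a3, Slc1a4, Grik3 and Gria2 lie above 10 FPKM in all replicates, Grin2b straddles the threshold, and Grm6 is listed at 0.

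Ranked by mean level, the genes ran from Grik5 at 34.8 FPKM to Grm6, listed at 0. Of the 31 pairs of neighbours in that order, 13 had replicates that did not overlap and 18 had replicates that did. In the upper part of the order, the replicates of Grik5, Slc1a3, Grik3, Gria2, Slc1a2 and Grm4 were each separate from those of the next gene, while Slc1a4 overlapped with Grik3 and Grid1 with Grm4. From Gria4 (4.81 FPKM) down through Grin2d, Grin1, Grik4, Gria3, Grik2 and Grin2c to Slc1a1 (3.19 FPKM), each gene overlapped with the next. Within the replicates, Gria4 was above Grin2d, Grin2d above Grin1 and Grin2c above Slc1a1 in all 3. The other neighbours in this stretch changed order between replicates, so their order is not resolved. With 3 replicates, an exact sign-flip test of a pair of genes cannot give a two-sided p below 0.25, and none is printed.

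AMPA receptors carry most fast excitatory transmission, and their subunit GluA2, encoded by Gria2, makes the channel nearly impermeable to calcium once its RNA has been edited. Gria2 had 12.7, 13.6 and 13.5 FPKM in replicates 1, 2 and 3. It was above each of the other AMPA genes in every replicate and made up 55.2% ± 2.13 (SD, n = 3) of the summed AMPA level of 24.0 ± 0.526 FPKM. Gria4, a subunit gene used early in development in several brain regions, had 5.30, 4.28 and 4.85 FPKM. Gria3 had 3.66, 3.29 and 3.68 FPKM, and Gria1 had 2.20, 2.46 and 2.58 FPKM. Gria4 was above Gria3 and Gria3 above Gria1 in all replicates, with no overlap in either pair. The level of Gria2 was 5.51 ± 0.269 times that of Gria1, the other main subunit gene of the adult forebrain, and 2.78 ± 0.383 times that of Gria4.

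Kainate receptors are built from the low-affinity subunits GluK1 to GluK3 (Grik1, Grik2 and Grik3), which form channels alone, and the high-affinity subunits GluK4 and GluK5 (Grik4 and Grik5), which need a partner from the first set. Grik5 had 34.3, 35.3 and 34.9 FPKM in replicates 1, 2 and 3, the highest level of all 32 genes and at percentile 92.6 of all genes in the table. Grik3 had 16.1, 14.6 and 14.8 FPKM. These subunit genes, of different affinity classes, made up 59.8% ± 1.39 and 26.0% ± 1.21 of the summed kainate level of 58.2 ± 0.781 FPKM (SD, n = 3). The remaining ones were lower, with 3.73 ± 0.192 FPKM for Grik4, 3.29 ± 0.290 for Grik2 and 1.23 ± 0.0756 for Grik1, whose replicates of 1.31, 1.23 and 1.16 FPKM lay just above the threshold. The level of Grik5 was 2.31 ± 0.153 times that of Grik3 and 28.4 ± 2.00 times that of Grik1. In the RefSeq table, which is of another build, the span of Grik5 overlaps that of Zfp574, a zinc finger gene at 13.1 ± 0.499 FPKM, and whether reads were counted by strand is not given, so a part of either level may belong to the other gene. The span of Grik3 likewise overlaps that of Mir692-2, a microRNA gene listed at 21632 ± 1469 FPKM (SD, n = 3), and how the reads of the pair were divided is not given, so the level of Grik3 and its share of the kainate sum carry the same limit.

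NMDA receptors need the GluN1 subunit (Grin1) together with GluN2 subunits (Grin2a to Grin2d), whose mix sets their kinetics, and can also hold GluN3 subunits (Grin3a and Grin3b). Grin1 had 3.72, 4.24 and 3.96 FPKM in replicates 1, 2 and 3. Its summed GluN2 partners stood at 8.82 ± 0.194 FPKM, 2.22 ± 0.0971 times the level of Grin1 (SD, n = 3). Among them Grin2d had 3.90, 4.26 and 4.34 FPKM and Grin2c had 3.12, 3.46 and 3.13 FPKM. Grin2d was above Grin2c in each replicate with no overlap. They made up 47.3% ± 2.13 and 36.7% ± 1.44 of the GluN2 sum. Grin2b, a GluN2 gene widely used in the embryonic brain, had 1.23, 1.12 and 0.994 FPKM and thus missed the threshold in replicate 3 alone. Grin2a, which rises after birth in rodents, had 0.389, 0.190 and 0.331 FPKM, the widest relative spread of the 31 genes above 0, with a coefficient of variation of 33.7%. Grin2c, best known from cerebellar granule cells of the adult, was 2.92 ± 0.334 times the level of Grin2b.

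The GluN3 genes were below 1 FPKM. Grin3a had 0.660, 0.569 and 0.578 FPKM and Grin3b, known from motor neurons, 0.644, 0.686 and 0.479 FPKM, which overlap. The span of Grin3b overlaps that of Tmem259, a gene for a membrane protein at 33.1 ± 2.00 FPKM, so a low value of Grin3b could hold reads of that gene. Grin1 also overlaps an antisense RNA gene, Grin1os, listed at 0.770 ± 0.0474 FPKM. The delta receptor gene Grid1, whose product joins synapses through secreted cerebellin proteins rather than acting as a classical glutamate-gated channel, had 7.66, 7.38 and 7.60 FPKM. That put it above all 7 NMDA genes in every replicate.

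**Figure D2:**
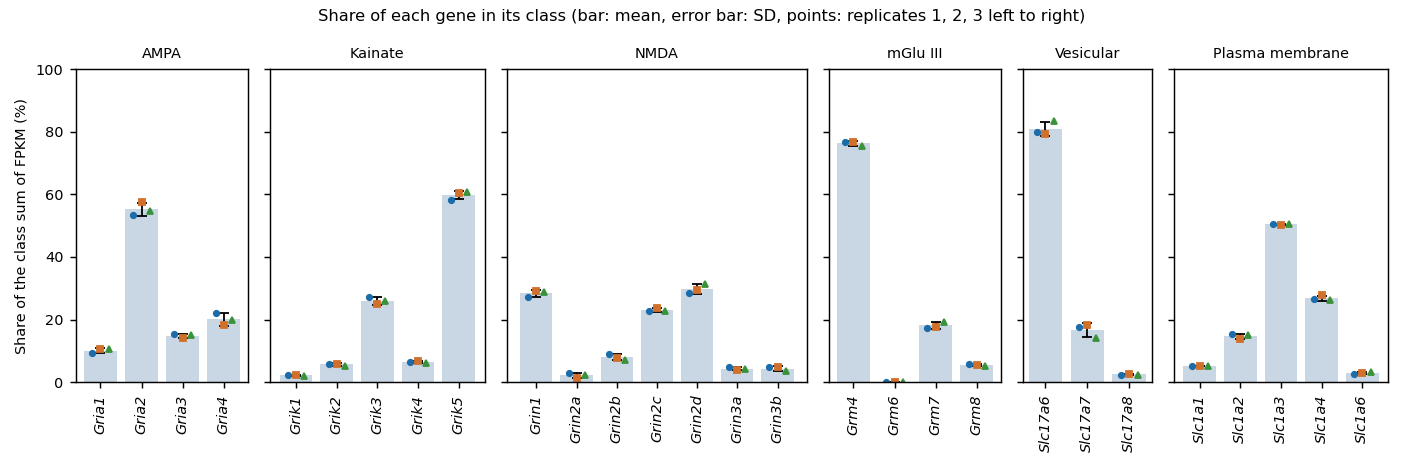
Share of each gene in the summed FPKM of its class (vertical axis, percent), for the classes with at least 3 genes; bars are means, error bars are SD and points are the replicates. Gria2 (55.2%), Grik5 (59.8%), Grm4 (76.4%), Slc17a6 (81.0%) and Slc1a3 (50.5%) hold most of their classes, whereas in the NMDA class Grin2d (29.8%), Grin1 (28.4%) and Grin2c (23.1%) are close.

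Metabotropic receptor genes were mostly below 1 FPKM, with a summed level of 11.0 ± 1.03 FPKM over 7 genes, against 104 ± 0.376 FPKM over the 17 ionotropic genes (SD, n = 3). Grm4, a group III receptor gene known from presynaptic terminals where it reduces release, had 6.76, 7.93 and 6.65 FPKM in replicates 1, 2 and 3. It made up 64.7% ± 0.919 of the metabotropic sum. Replicate 2 was the highest for this gene. Grm7, of the same group, had 1.52, 1.83 and 1.71 FPKM and was the only other metabotropic gene at 1 FPKM or more. The group III gene Grm8 had 0.512, 0.561 and 0.456 FPKM, and Grm6, whose product serves the ON bipolar cells of the retina, was listed at 0 in every replicate. The group II genes, which inhibit adenylyl cyclase, were Grm2 with 0.910, 0.890 and 0.658 FPKM and Grm3 with 0.515, 0.571 and 0.383 FPKM. Replicate 3 was the lowest for both. Grm5, the group I gene of the list and a receptor that couples to phospholipase C, had 0.402, 0.372 and 0.341 FPKM.

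The vesicular transporters mark neurons that release glutamate. Slc17a6, which encodes VGLUT2, the form of most spinal and brainstem excitatory neurons, had 2.82, 2.69 and 2.87 FPKM in replicates 1, 2 and 3. It made up 81.0% ± 2.30 of the summed vesicular level of 3.45 ± 0.0651 FPKM (SD, n = 3). Slc17a7, encoding the cortical form VGLUT1, had 0.615, 0.620 and 0.481 FPKM, and Slc17a8, encoding VGLUT3, 0.0851, 0.0844 and 0.0816 FPKM. None of these replicate values of different genes overlapped. Slc18a3 and Slc32a1, the only vesicular transporter genes of other transmitters examined, were higher in the same libraries. Slc18a3, for acetylcholine, stood at 22.1 ± 1.16 times the level of Slc17a6 and Slc32a1, for GABA and glycine, at 4.30 ± 0.139 times. The cholinergic genes Chat (8.62 ± 0.329 FPKM) and Slc5a7 (4.59 ± 0.368) were well below Slc18a3 (61.5 ± 1.54). Overlaps of Slc18a3 and Slc32a1 with other genes were not searched.

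The plasma membrane transporter genes of the Slc1 family had the highest summed level of any class, 62.0 ± 1.01 FPKM, with 61.9, 63.0 and 61.0 FPKM in replicates 1, 2 and 3, above the kainate sum of 58.8, 58.5 and 57.3 FPKM in each. Slc1a3, encoding GLAST, the transporter of radial glia and astrocytes, had 31.2, 31.7 and 30.9 FPKM. This was 50.5% ± 0.152 of the class (SD, n = 3) and the smallest relative spread of the 22 members that averaged 1 FPKM or more, a coefficient of variation of 1.34%. Slc1a4, whose product ASCT1 carries neutral amino acids such as serine rather than glutamate, had 16.4, 17.4 and 15.9 FPKM. It made up 26.8% ± 0.841 of the class, and without it the class sum would be below the kainate sum in each replicate. Slc1a2, encoding GLT-1, the main uptake transporter of mature astrocytes, had 9.49, 8.70 and 9.15 FPKM. Slc1a3 stood at 3.44 ± 0.186 times Slc1a2. Slc1a1, encoding the neuronal transporter EAAC1, had 3.12, 3.32 and 3.12 FPKM, and Slc1a6, encoding EAAT4 of cerebellar Purkinje cells, 1.69, 1.81 and 1.92 FPKM. Beside them, 4 of 6 astrocyte markers were expressed, led by Aldoc (36.7 ± 1.53 FPKM) and Gja1 (16.6 ± 2.11), with the water channel gene Aqp4 at 0.0496 ± 0.0154 and S100b at 0.226 ± 0.0455 FPKM. The part of astrocytes and of radial glia in the Slc1 levels was not tested.

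Other genes of glutamate signalling were taken from 5 lists, of which 41 of 48 genes (85.4%) were at 1 FPKM or more in every replicate, read against 50.7% of all genes. Auxiliary subunits, which bind AMPA or kainate receptors and set their traffic and gating, were expressed in 9 of 14 cases. The highest were Cacng4 (58.5 ± 2.66 FPKM; SD, n = 3), a TARP subunit, Cnih2 (53.8 ± 2.65), a cornichon, and Cacng7 (21.5 ± 0.809), a further TARP. Cacng4 was at 61.2, 55.9 and 58.3 FPKM in replicates 1, 2 and 3, above the summed AMPA subunit genes at 23.9, 23.6 and 24.6 FPKM in each of them. Cnih2 was 4.06 ± 0.348 times the level of Gria2. The classical TARP gene Cacng2, encoding stargazin, was lower at 8.09 ± 0.586 FPKM. Of the kainate receptor partners, Neto2 stood at 8.68 ± 0.507 FPKM and Neto1 at 0.411 ± 0.0762. Cacng5 missed the threshold in replicate 3 alone.

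All 21 postsynaptic scaffold and signalling genes were expressed, with a median of 10.2 FPKM. They were led by Dlgap4 (70.5 ± 0.897 FPKM; SD, n = 3) and Dlg4 (49.4 ± 0.367), which encodes the scaffold PSD-95, and by Pick1 (19.8 ± 0.861), whose product binds AMPA subunits. All 6 genes of glutamate metabolism counted here were expressed, led by Glul (77.1 ± 4.74), the glutamine synthetase of glia, Got2 (64.7 ± 0.282), a mitochondrial aspartate aminotransferase, and Glud1 (42.7 ± 1.11), glutamate dehydrogenase. Of 4 glutamine transporter genes, Slc38a1 (42.1 ± 0.988) and Slc38a2 (31.2 ± 0.870) were expressed, and Slc38a3 (1.06 ± 0.0633) missed the threshold in replicate 2. Of the genes listed as adenosine deaminases acting on RNA, Adarb1, whose product ADAR2 edits Gria2, stood at 2.88 ± 0.0794 FPKM. Adar (16.2 ± 0.271) and Adarb2 (6.65 ± 0.342) were higher, but membership of this list does not show that a product edits RNA. Editing itself cannot be read from FPKM.

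**Figure D3:**
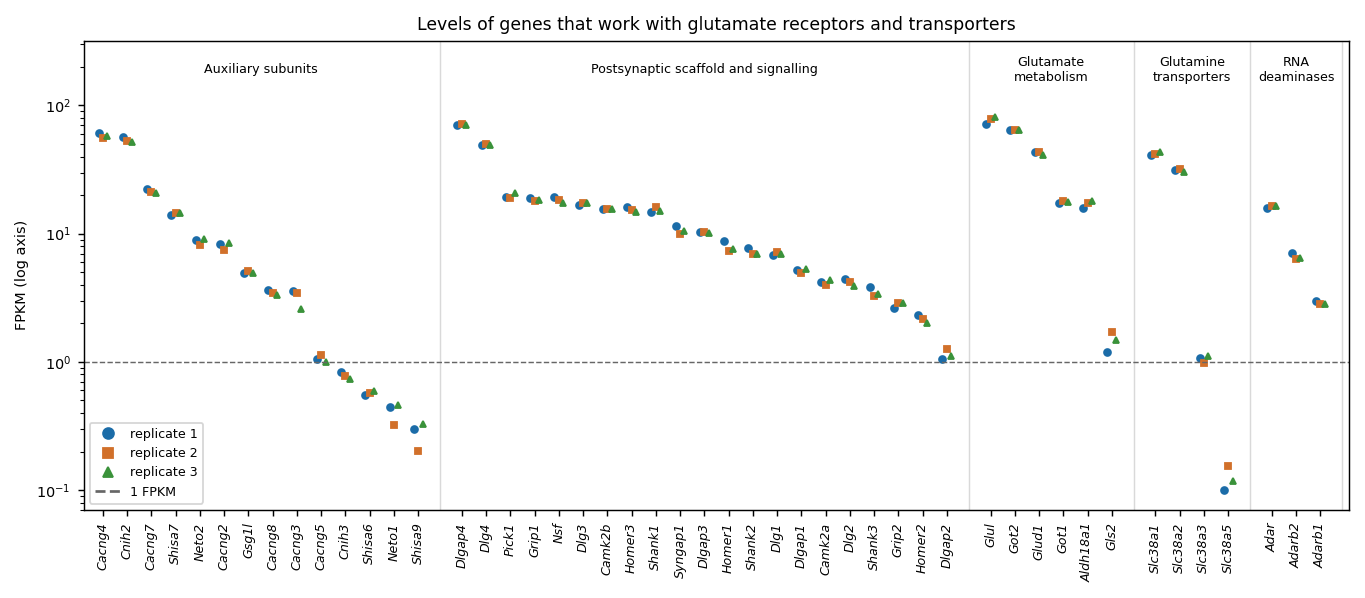
FPKM (vertical axis, logarithmic) of the 48 genes of the 5 lists in each replicate (points), sorted by mean level within a list, with the threshold of 1 FPKM (dashed). Cacng4 and Cnih2 lead the auxiliary subunits at over 50 FPKM, every scaffold and metabolism gene lies above 1 FPKM, and Shisa9 (0.277 FPKM on average) and Slc38a5 (0.124) are the lowest of their lists.

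Promoter sequence is a property of these genes that played no part in choosing them. RefSeq promoters, which run from 250 bases before to 50 bases after an annotated start in GRCm38.p6, were matched by symbol for 23 of the 32 genes, 4 of which had more than 1 start. This build is not the mm9 of the expression data, and the start used in these cells is unknown. Short stretches that end at the base before the start are given for the genes at the extremes of base composition and level, Grik3 with the highest GC content, Slc1a3 with the second highest level and Grm6 listed at 0, with each CG dinucleotide, the site of DNA methylation, in capitals. Grik3 lies at chr4:125490546-125490695 (plus strand), Slc1a3 at chr15:8710808-8710957 (minus strand) and Grm6 at chr11:50850535-50850684 (plus strand).

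Grik3: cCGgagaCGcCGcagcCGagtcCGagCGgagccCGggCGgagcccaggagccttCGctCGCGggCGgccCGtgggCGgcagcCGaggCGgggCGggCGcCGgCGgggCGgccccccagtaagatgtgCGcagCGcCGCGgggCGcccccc

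Slc1a3: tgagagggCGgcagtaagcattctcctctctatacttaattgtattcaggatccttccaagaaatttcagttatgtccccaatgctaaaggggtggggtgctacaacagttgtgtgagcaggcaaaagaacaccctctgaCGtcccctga

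Grm6: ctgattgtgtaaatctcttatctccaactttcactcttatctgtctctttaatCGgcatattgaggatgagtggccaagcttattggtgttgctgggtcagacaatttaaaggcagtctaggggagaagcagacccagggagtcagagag

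The stretch of Grik3 holds 26 CG dinucleotides in 150 bases, that of Slc1a3 2 and that of Grm6 1. Over the whole window of 300 bases, the ratio of observed to expected CpG at the first listed start was 1.01 for Grik3, 0.197 for Slc1a3 and 0.218 for Grm6, so a CpG-poor window occurred both in a gene at 31.3 FPKM and in a gene listed at 0. Of the 16 expressed members with a promoter, 11 (68.8%) had a ratio of 0.6 or more, a usual mark of CpG-rich promoters, against 77.2% of all 9181 expressed genes with a promoter. Of the 7 members with a promoter that were not expressed, 2 (28.6%) did, against 15.2% of all 7644 such genes. The members' median ratio was 0.706 where expressed and 0.362 where not, against 0.787 and 0.234 over all such genes. The highest members, Grik5 (0.277) and Slc1a3, were among the CpG-poor ones, as was Slc1a2 (0.0641). Grm8, below 1 FPKM, was CpG-rich at its first listed start (0.986) but not at its other starts (0.490 and 0.142). The other members above 10 FPKM in every replicate, Slc1a4 (0.666), Grik3 and Gria2 (0.804), were CpG-rich.

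**Figure D4:**
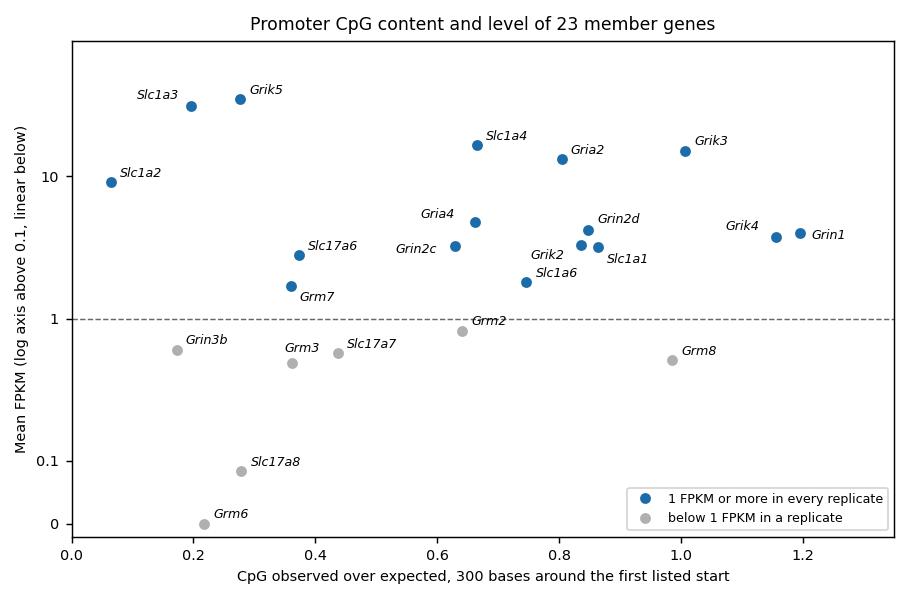
Mean FPKM (vertical axis, logarithmic above 0.1 and linear below) against the ratio of observed to expected CpG in the 300 bases around the first listed start (horizontal axis) for the 23 genes with a RefSeq promoter; blue points are genes at 1 FPKM or more in every replicate and grey points are the others. Slc1a3, Grik5 and Slc1a2 combine a high level with a ratio below 0.3, whereas Slc1a4, Grik3 and Gria2 combine one with a ratio above 0.6.

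The promoters were also searched for parts of RE1, the element that REST, a repressor of neuronal genes in other cells, binds and that is known from several glutamate receptor genes. The parts were AGCACC and GGACAGC, which do not overlap, on both strands; this form was settled after the sequence of Gria2 had been seen. Gria2 holds them 2 bases apart, the spacing of the canonical element, between 171 and 157 bases before the start and on the strand opposite to the gene. Among all 32851 promoters, 10 (0.0304%) hold this arrangement, and no other member does. Grm2 holds the parts 7 bases apart, between 239 and 220 bases before the start on the strand of the gene, and 1.19% of all promoters hold both parts at any spacing and in any orientation. The 250 bases before the start are shown for these genes, with the parts in capitals, for Gria2 as their reverse complement; Gria2 lies at chr3:80802836-80803085 (minus strand) and Grm2 at chr9:106656110-106656359 (minus strand).

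Gria2: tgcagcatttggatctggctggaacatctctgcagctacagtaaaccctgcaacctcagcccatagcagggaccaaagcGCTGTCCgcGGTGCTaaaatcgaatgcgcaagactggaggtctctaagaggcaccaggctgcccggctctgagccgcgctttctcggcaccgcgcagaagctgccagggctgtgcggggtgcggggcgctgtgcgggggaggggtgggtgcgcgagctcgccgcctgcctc

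Grm2: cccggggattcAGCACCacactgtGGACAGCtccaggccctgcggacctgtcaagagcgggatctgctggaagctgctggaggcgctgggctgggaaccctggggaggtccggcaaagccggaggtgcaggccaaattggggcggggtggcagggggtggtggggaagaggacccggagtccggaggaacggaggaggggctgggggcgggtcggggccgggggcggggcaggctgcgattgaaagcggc

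Gria2 was thus the highest AMPA gene at 13.3 ± 0.465 FPKM and Grm2 a gene below the threshold at 0.819 ± 0.140 FPKM (SD, n = 3). A match in these letters does not show that a factor was bound, and no match in the other promoters says nothing of sites outside these windows.

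Between replicates the glutamate genes varied little. The 22 genes that averaged 1 FPKM or more had coefficients of variation from 1.34% to 10.6%, and the 9 lower genes above 0 from 2.16% to 33.7%. The median SD of log2(FPKM + 1) was 0.06 over the 21 expressed members and 0.06 over the 10296 expressed genes in the same range of means. Among those 22, the largest deviation from a gene's own mean was 0.14 on that scale, for Grm4 in replicate 2.

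The endoderm markers of the same libraries, like all lists here chosen with earlier results of these data known, moved more. Their median deviation was -0.32 in replicate 1, 0.14 in replicate 2 and 0.16 in replicate 3, and 8 of 9 were lowest in replicate 1. All 10 pan-neuronal markers were instead highest in replicate 1, where their median deviation from the gene's own mean was 0.05. The glutamate genes had median deviations of -0.01, 0.02 and 0.00 in replicates 1, 2 and 3, beside 0.00 in each over the 12432 genes of the table that averaged 1 FPKM or more. Of the 22 members, 9 were lowest in replicate 1 (40.9%, against 36.5% of all such genes) and 7 were highest there (31.8%, against 36.3%). Lowest in replicate 1 were Gria1, Gria2, Grik5, Grin1, Grin2c, Grin2d, Grm7, Slc1a1 and Slc1a6, and highest there were Gria4, Grik1, Grik2, Grik3, Grin2b, Grid1 and Slc1a2. The part of the cell mix in these small differences was not tested.

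**Figure D5:**
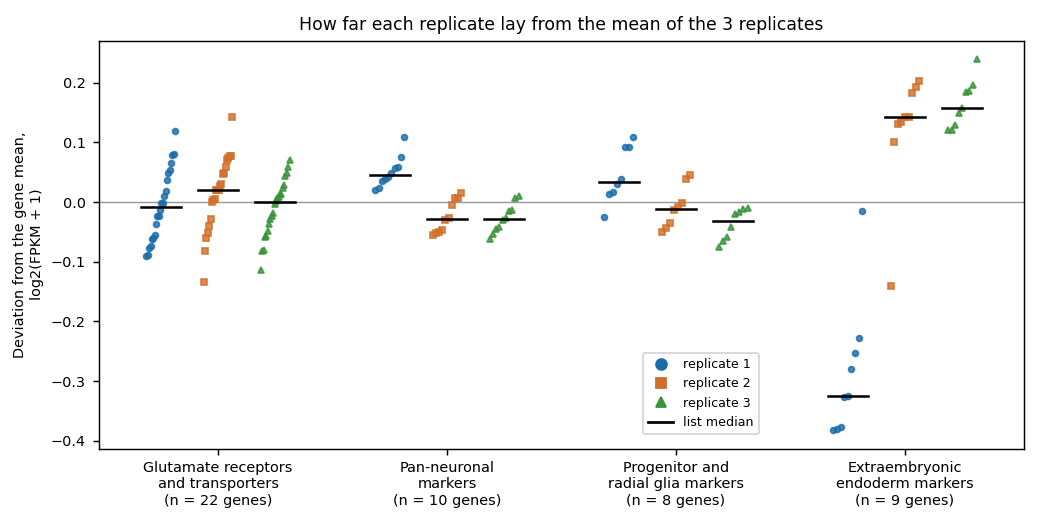
Distance of each gene's log2(FPKM + 1) from the average of its 3 replicates (vertical axis), for the 22 glutamate genes that averaged 1 FPKM or more and for 3 marker lists, by replicate; each point is a gene and black lines are list medians. The glutamate genes are centred near 0 in every replicate, while the endoderm markers lie at a median of -0.32 in replicate 1 and above 0 in the others.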

How the data were processed

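The authors deposited a table with a column for each of 3 RNA-seq samples. Its header names no unit; the deposited values were read as FPKM because the submitters' processing notes name Cufflinks, together with Bowtie and mm9, without versions. The sources used here do not give read totals, strand use or any scaling between libraries, and an exact 0 can be a failed estimate. The deposited ATAC-seq regions are in mm9, for which no gene annotation was used here, so they were not analysed. The members and lists were chosen with earlier results of these data known. Described are every member, the 3 highest genes of each pathway list with genes that act on a described member, and the 2 highest of each marker list used; other genes named, such as Zfp574, were chosen after their values were seen. Among the 9 marker lists, those of inhibitory neurons (5 of 5 expressed), cholinergic motor neurons (6 of 6), oligodendrocyte lineage (3 of 6) and pluripotency (3 of 5) served for context. Some list genes are not reported here and are left out of the counts. This leaves the list of excitatory spinal interneuron markers incomplete: of its 6 counted genes, Evx1 (2.44 ± 0.177 FPKM, SD, n = 3) was expressed, and no share is drawn from it.

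Expressed means that no replicate was below 1 FPKM. Deviations used log2(FPKM + 1), which understates differences of low genes. Depth ratios are the most common ratio among genes between 0.001 and 0.1 FPKM in both libraries, taken as that of equal read numbers, within 0.004 on the natural log scale. This step was checked only on simulated random read counts with the same gene length in each library, which have such steps by construction. The check does not cover other ways in which the deposited values may have been estimated or scaled. Alternatives were other thresholds, upper quartile scaling, other filters and each replicate left out. Analyses used Python 3.11.15, pandas 2.3.3 and matplotlib 3.10.9.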

Additional observations from a re-analysis of the deposited data

How the results depend on the processing

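Of the 32 members, 24 were expressed at a threshold of 0.5 FPKM (75.0%, against 54.4% of all genes) and 8 at 5 FPKM (25.0%, against 35.7%), so the members' share lay above that of all genes at the lower thresholds and below it at the higher one. The count was 22 with the mean at the threshold and 21 with upper quartile scaling, and between 21 and 22 with a replicate left out. Member levels moved by at most 0.0761% under upper quartile scaling and by at most 18.7% when a replicate was left out, which was the change of Grin2a without replicate 2. The count of 41 pathway genes ranged from 29 to 45 over thresholds of 5 and 0.5 FPKM and each replicate left out. Without a filter on low values, the members' median deviation (log2) was 0.00675 in replicate 1, in place of -0.00773, and -0.0198 in replicate 3, in place of -0.000177. Of the members above 0 that this adds, Grin3b, Grm2, Grm3, Grm5, Grm8, Slc17a7 and Slc17a8 were lowest in replicate 3. Grin2a and Grin3a were lowest in replicate 2. The cause of these differences between replicates was not tested. No paired analysis was possible because the series holds a single RNA-seq condition. Depth limits the genes below 1 FPKM, whose read numbers are unknown. The design has 3 samples of 1 condition and allows no test of change.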
